A study of Arabidopsis thaliana with 2 samples.

Results

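The 3 phosphoethanolamine methyltransferase genes of Arabidopsis, NMT1 (AT3G18000), NMT2 (AT1G48600) and NMT3 (AT1G73600), were taken by their gene identifiers from the 25224 genes of the series and are represented there by 5 of 33114 transcript isoforms. Each was followed through its 5′ UTR, exons and 3′ UTR in 2 libraries made from membrane-bound polysomes (MBPs), which are transcripts with ribosomes that co-purify with microsomal membranes. Both libraries came from wild-type seedlings of the Columbia accession at 13 days of age, with no mutant and no treatment. In the ribo-seq library, fragments shielded by ribosomes against RNase I were sequenced. In the mRNA-seq library, polyA+ RNA of the fraction was fragmented and sequenced. There was 1 library per assay, so every difference below is between 2 libraries and has no replicate check. Intervals are at 95%. Because copies made by PCR are not separate molecules, intervals and limits for a count of 0 reflect counting error alone. In such bulk samples, more cells with a transcript and more transcript per cell cannot be told apart.

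The NMT enzymes methylate the phosphoethanolamine head group to phosphocholine, the precursor of phosphatidylcholine, with S-adenosylmethionine as methyl donor. NMT1, also known as XPL1, and NMT3 act from the first methylation step on, and NMT2, also known as PMEAMT, is known for the later steps. The leaders of these transcripts carry an upstream open reading frame (uORF), a short reading frame ahead of the main one, whose encoded peptide is conserved among plants. The uORF of NMT1 is known for lowering translation of the main frame when phosphocholine is plentiful. The question asked of the tables was how footprints and mRNA reads were spread over the leaders and coding sequences of the 3 genes.

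The annotated uORF of each gene was 78 nt long, stop codon included, and encoded 25 residues. In NMT1 it lay at chr3:6154434-6154511, in the only isoform, and ended 66 nt before the main start codon. In NMT2 it lay at chr1:17965933-17966010, in isoform 2, and ended 63 nt before the main start. In NMT3 it lay at chr1:27670626-27670703, in isoform 1, where it began at the first base of the annotated transcript and ended 121 nt before the main start. It was the only frame opened by an ATG in each of these leaders. The leaders of NMT2 isoform 1 and NMT3 isoform 2 held no upstream ATG with an in-frame stop. A frame of 10 codons or more was found in 47.2% of 15954 annotated 5′ UTRs. All 3 genes lie on the plus strand. The starts of the uORFs are printed so that the 3 frames can be compared from the ATG on. Capitals mark the ATG, the sequences are from the RefSeq reference of assembly TAIR10.1, and the windows are chr3:6154425-6154454 for NMT1, chr1:17965924-17965953 for NMT2 and chr1:27670626-27670655 for NMT3.
NMT1 uORF start: tgcgaattgATGcagcagagaggacgatcc
NMT2 uORF start: ttgatcgacATGaatcaaagaggaagatcc
NMT3 uORF start: ATGcagtcgaagggtaggcttcacaacttc

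Over the whole frame, the uORFs of NMT1 and NMT2 shared 66 of 78 bases and 23 of 25 residues. Those of NMT1 and NMT3 shared 50 bases and 18 residues, and those of NMT2 and NMT3 shared 47 bases and 17 residues. The main coding sequences had the same order, with 85.2% identity between NMT1 and NMT2, 77.1% between NMT1 and NMT3 and 76.6% between NMT2 and NMT3. The letters around the 5 main starts are shown because the isoforms of NMT2 and of NMT3 begin their proteins at different sites. For NMT1 the window is chr3:6154568-6154584, for NMT2 chr1:17966438-17966454 in isoform 1 and chr1:17966064-17966080 in isoform 2, and for NMT3 chr1:27670815-27670831 in isoform 1 and chr1:27669214-27669230 in isoform 2.
NMT1 main start: catttccgaaATGgctg
NMT2 isoform 1 main start: aagctactggATGgagc
NMT2 isoform 2 main start: ctctccaaaaATGgcga
NMT3 isoform 1 main start: ctcaaggataATGgctt
NMT3 isoform 2 main start: tcaatagtcaATGgctc

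**Figure D1:**
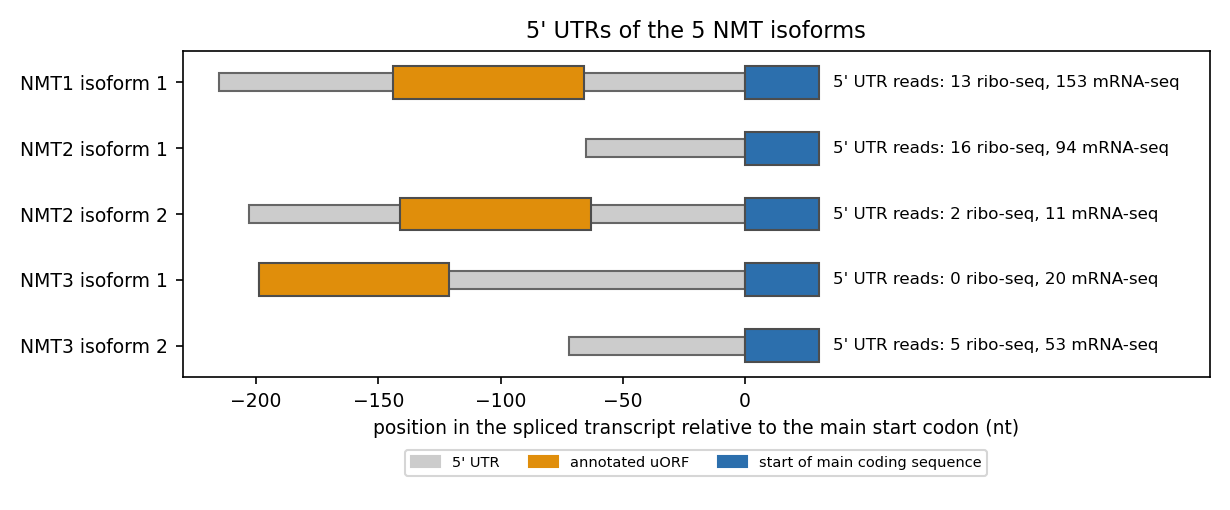
The 5′ UTR of each NMT isoform is drawn to scale along the spliced transcript, in nt from the main start codon (0), with the annotated uORF as an orange box, the first coding bases in blue and the reads of each library at the right. The uORF is present in NMT1, NMT2 isoform 2 and NMT3 isoform 1, and the leader of NMT1 holds the most mRNA-seq reads, 153.

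Low values of the tables were whole multiples of 1 step, which put the ribo-seq library at 38438720 reads and the mRNA-seq library at 66958224. All values are in RPM, reads scaled to the size of the library. Where no read was counted, the limit used in the text is 3 reads, or 0.0780 RPM for ribo-seq and 0.0448 RPM for mRNA-seq. The exact two-sided Poisson interval of a value, as plotted, is wider and reaches 0.0960 RPM for 0 ribo-seq reads. The samples are labelled as seedlings, and the exon values of shoot and root markers were looked up beside that label. The 4 shoot markers, led by RBCS1A, a small subunit of Rubisco, had exon values of 267.3 to 9535 RPM in ribo-seq and 1212 to 13066 RPM in mRNA-seq. The 4 root markers were lower, from 0.312 RPM for COBL9, a root hair gene, to 9.13 RPM for SCR, a patterning factor of the root, in ribo-seq and from 0.119 to 32.8 RPM in mRNA-seq. SHR and SCR exceeded 1 RPM in each library, whereas PIN2 and COBL9 stayed below 1 RPM in each. Whether root tissue contributed to the samples was not tested.

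NMT2 was the most abundant of the 3 transcripts, and NMT3 was the one with the most footprints for its mRNA. The exon value of NMT1 was 7.15 RPM (275 reads) in ribo-seq and 29.6 RPM (1979 reads) in mRNA-seq. That of NMT2 isoform 2 was 92.1 RPM (3540 reads) in ribo-seq and 177.0 RPM (11850 reads) in mRNA-seq. That of NMT3 isoform 2 was 58.9 RPM (2265 reads) in ribo-seq and 49.9 RPM (3342 reads) in mRNA-seq, so that NMT3 was the only one of the 3 whose ribo-seq value was the larger. The other isoforms differed little from these, because reads are counted once for each isoform they fall in: NMT2 isoform 1 had 91.8 and 175.5 RPM, and NMT3 isoform 1 had 57.4 and 48.7 RPM. Of the mRNA-seq exon values summed over the 3 genes, NMT1 held 11.5%, NMT2 69.0% and NMT3 19.5%. Of the ribo-seq values, NMT1 held 4.52%, NMT2 58.2% and NMT3 37.3%. Per length the order of the mRNA-seq levels was the same, with 20.02 RPM per kb for NMT1, 119.9 for NMT2 and 32.9 for NMT3.

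**Figure D2:**
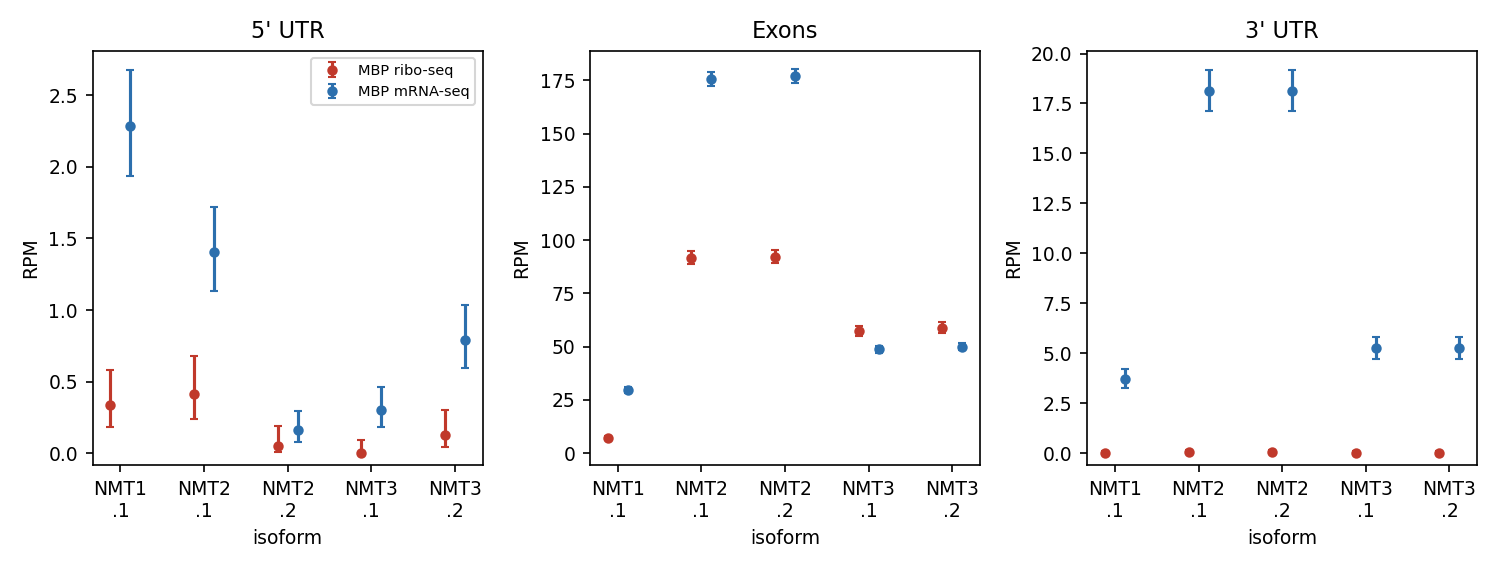
Values of the 5′ UTR, exons and 3′ UTR of the 5 NMT isoforms are plotted in RPM, 1 point per library (red, ribo-seq; blue, mRNA-seq), with exact Poisson 95% intervals. Only in the exons of NMT3 is the red point above the blue one, and the ribo-seq values of the 3′ UTRs lie at or near 0.

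The 3 genes took separate places among the 16879 genes with a mean exon value of at least 1 RPM. The exon ratio, log2 of ribo-seq over mRNA-seq RPM with a pseudocount of 1, had a median of −0.99 over these genes, and each ratio is read against that median. The ratio of NMT1 was −1.91 ± 0.08 (SE from counting), or −0.92 from the median and at the 13.8th percentile. The ratio of NMT2 was −0.93 ± 0.03, or 0.05 from the median and at the 52.7th percentile. The ratio of NMT3 was 0.24 ± 0.04, or 1.22 from the median, which is 2.34-fold above it, at the 97.8th percentile with 368 genes higher. Thus 1 of the 3 was over 2-fold above the median, beside 5.59% of all genes, and 0 of 3 lay more than 2-fold below it, beside 11.8% of all genes.

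The differences among the 3 genes were larger than their counting error. The ratio of NMT3 exceeded that of NMT1 by 2.14 (interval 1.96 to 2.32), or 4.41-fold, and that of NMT2 by 1.17 (1.08 to 1.26). The ratio of NMT2 exceeded that of NMT1 by 0.97 (0.80 to 1.14). These are 3 comparisons between genes of the same 2 libraries, with no replicate. The place of NMT2 at the median rested on the settings: its difference from the median was −0.26 with a pseudocount of 5 RPM and −0.34 without the filter. NMT3 was under 2-fold from the median under the same settings, at 0.87 and 0.83, and NMT1 was more than 2-fold below it without the filter, at −1.31. NMT1 and NMT2 shared stretches of up to 47 identical coding bases, and 36 of the 1449 windows of 28 nt in the coding sequence of each, 2.48%, occurred in the other. In NMT3 no window was shared with NMT1 or NMT2. For mRNA-seq in general, the methods describe leaving out reads with more than 1 map position. The methods of the MBP ribo-seq and mRNA-seq counting do not repeat that step.

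**Figure D3:**
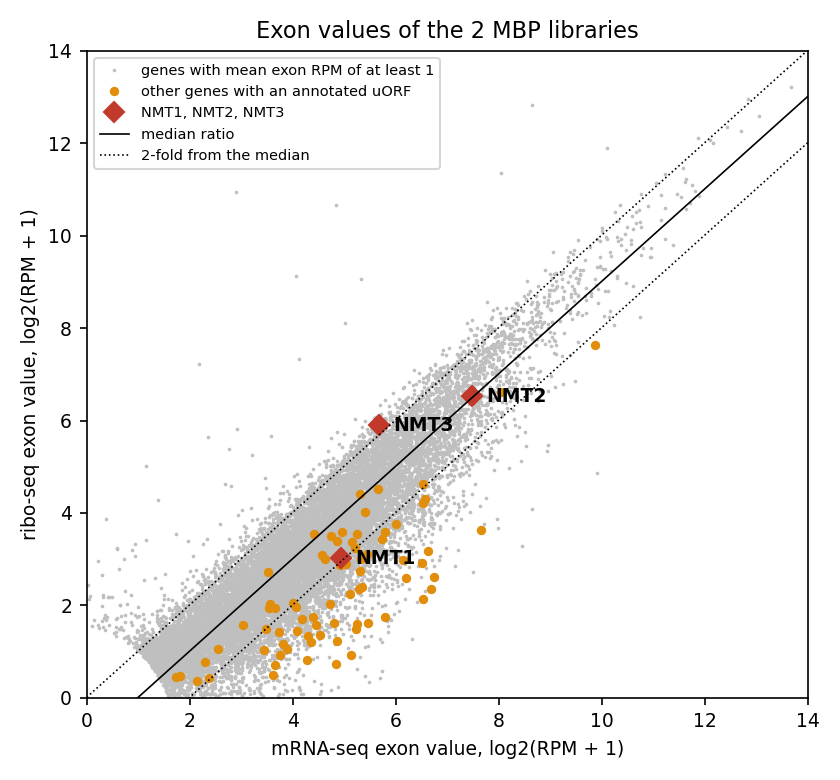
Each gray point is 1 of 16879 genes, plotted as log2(RPM + 1) of its exons in mRNA-seq (x) and ribo-seq (y), with other annotated uORF genes in orange, the NMT genes as red diamonds, the median ratio as a solid line and 2-fold from it as dotted lines. NMT3 lies above the upper dotted line, NMT2 on the median line and NMT1 between the median and the lower dotted line.

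The uORF-bearing leader of NMT1 was well covered by mRNA reads, and those of NMT2 and NMT3 were almost bare. The 215-nt leader of NMT1 held 13 ribo-seq reads (0.338 RPM) and 153 mRNA-seq reads (2.29 RPM). The 203-nt leader of NMT2 isoform 2 held 2 ribo-seq reads (0.0520 RPM) and 11 mRNA-seq reads (0.164 RPM), although the exons of this isoform held more mRNA reads than those of either other gene. The 199-nt leader of NMT3 isoform 1 held 0 ribo-seq reads, which allows up to 0.0780 RPM and 0.136% of the ribo-seq reads of this isoform, and 20 mRNA-seq reads (0.299 RPM). The leaders without a uORF are shorter. That of NMT2 isoform 1, of 65 nt, held 16 footprints in ribo-seq and 94 reads in mRNA-seq, and that of NMT3 isoform 2, of 72 nt, held 5 and 53. In both genes the uORF-free leader therefore had more reads in each library than the longer uORF-bearing one. No window of 28 nt in any of these leaders occurred a second time in the nuclear genome, and none of them is therefore a repeat at that length.

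Read per length, the mRNA-seq level of the NMT1 leader was 53.1% of the level of its exons, at the 84.5th percentile of 13720 genes, whose median was 27.4%. For NMT2 it was 0.675% in the uORF-bearing leader, at percentile 0.692, and 17.6% in the uORF-free one. For NMT3 it was 4.54% in the uORF-bearing leader, at percentile 6.21, and 33.4% in the uORF-free one. In ribo-seq the leader level per length was 32.5% of the exon level for NMT1, against a median of 3.57%. It was 0.411% and 9.97% in the uORF-bearing and uORF-free leaders of NMT2, and 0% and 4.64% in those of NMT3. The leader of NMT1 thus stood above the median gene in both libraries, and the uORF-bearing leaders of NMT2 and NMT3 below it in both. The lengths are those of the TAIR10.1 models, and the leaders counted by the authors may differ from them in length. Exon levels were taken per length of the coding sequence, which reads the exon values as leaving out the UTRs. The sources used here do not define the exon feature. In the uORF gene SACL1 the 5′ UTR held 175 ribo-seq reads and the exons 35. Shares and odds ratios likewise treat UTR and exon reads as separate. The exon level of NMT2 and NMT3 is that of both isoforms together, which the tables do not separate.

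The 2 leaders of NMT2 do not overlap, but 32 of the 65 nt of the isoform 1 leader are coding sequence in isoform 2. The reads of that leader can come from either isoform over those 32 nt. The other 33 nt are in no exon of isoform 2 but lie within its span, and whether its unspliced RNA gave reads there was not tested. The coding sequence of NMT2 isoform 2 has 48 nt that isoform 1 lacks, and the exon values of the isoforms differed by 13 reads in ribo-seq and 96 in mRNA-seq. Of these 48 nt, 32 are the ones that the isoform 1 leader also covers, so its 94 mRNA-seq reads and these 96 are not independent. The ribo-seq over mRNA-seq ratio of these RPM was 0.236, beside 0.520 for the whole exon value. In NMT3, 55 coding nt are found only in isoform 2 and 13 only in isoform 1, and the exon values differed by 58 reads in ribo-seq and 78 in mRNA-seq, with isoform 2 the higher. The ratio of these RPM was 1.30, beside 1.18 for the whole. The extra coding stretch thus lies in the uORF-bearing isoform of NMT2 and in the uORF-free isoform of NMT3.

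Of 78 genes with an annotated uORF and a mean exon value of at least 1 RPM, 77 had a 5′ UTR value for an isoform whose model holds the uORF. Among these, NMT3 and NMT2 stood at one end and NMT1 in the body of the group. By exon ratio, NMT3 ranked 1, NMT2 5 and NMT1 25 from the highest. The ratio is that of the isoform with the largest mean exon value, which is not the uORF-bearing one in every gene. For NMT3 it is the uORF-free isoform 2, at 0.24, and isoform 1 had 0.23. The median ratio of the other 74 genes was −2.32. Of these 74, 3 lay above the median of all genes, beside 50.0% of all genes by construction. They were UCP5, AT5G63640 and AT4G12790, picked out after their values were seen. More than 2-fold above the median of all genes were 0, beside 5.59% of all genes, and more than 2-fold below it were 48, beside 11.8%. By mRNA-seq level per length of the uORF-bearing leader relative to the exons, NMT2 was the lowest of the 77, NMT3 the next and NMT1 27th, where the other genes had a median of 65.0%. By the ribo-seq level, NMT3 and NMT2 were the lowest and NMT1 was 14th, where the others had a median of 94.995%. NMT3, at 0 reads, and NMT2, at 0.411%, cannot be ordered, since 3 reads in NMT3 would be 1.01%. These ranks describe 2 libraries and were not tested.

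**Figure D4:**
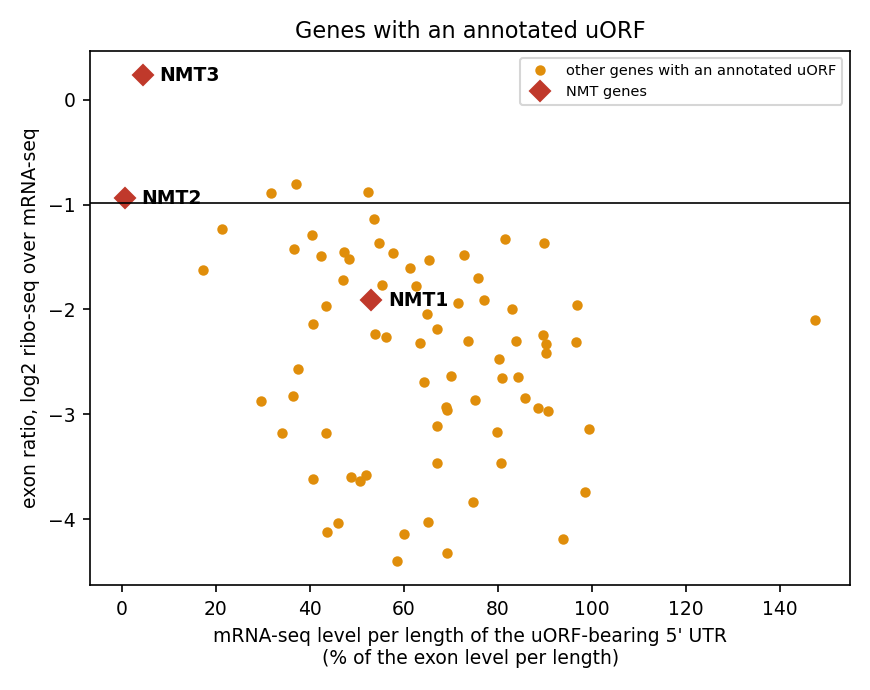
For the 77 genes with an annotated uORF, the exon ratio (y, log2 of ribo-seq over mRNA-seq) is plotted against the mRNA-seq level per length of the uORF-bearing 5′ UTR as a percentage of the exon level (x); the line is the median ratio of all genes, −0.99. NMT2 (0.675%) and NMT3 (4.54%) lie at the left edge with ratios at or above the line, and NMT1 (53.1%) lies among the other genes below it.

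Set against the exons, the leader held a smaller share of the footprints than of the mRNA reads in each of the 5 NMT isoforms, by an amount that did not always exceed the counting error. In NMT1 there were 4.73 leader reads per 100 exon reads in ribo-seq and 7.73 in mRNA-seq, an odds ratio of 0.611 (exact interval 0.314 to 1.10). In NMT2 isoform 2 these were 0.0565 and 0.0928, an odds ratio of 0.609 (0.0655 to 2.79). In NMT3 isoform 2 they were 0.221 and 1.59, an odds ratio of 0.139 (0.0434 to 0.347). The intervals of NMT1 and of NMT2 isoform 2 thus included 1, and that of NMT3 isoform 2 lay below it, as did that of the uORF-free NMT2 isoform 1 with an odds ratio of 0.567 (0.311 to 0.972). In the uORF-bearing NMT3 isoform 1, with 0 ribo-seq reads, the exact interval of the odds ratio reached up to 0.30. Over 12160 genes the medians were 0.863 in ribo-seq and 5.40 in mRNA-seq, and ribo-seq was the lower in 91.5% of them. With isoform 2 standing for NMT2 and NMT3, 1 of the 3 genes (NMT2) had 3 or fewer ribo-seq reads in the leader. This stands beside 48.8% of genes with 10 or more mRNA-seq reads there. For NMT3 that leader is the uORF-free one, with 5 ribo-seq reads, and its uORF-bearing leader had 0. The tables give 1 sum for each 5′ UTR, so reads on the uORF and beside it cannot be told apart.

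On the scale used across genes, 5′ UTR occupancy is the log2 of the leader to exon ratio in ribo-seq over that in mRNA-seq, with a pseudocount of 0.5 RPM. With 1 isoform standing for each gene, isoform 2 for NMT2 and NMT3, only NMT1 had a mean leader value of at least 0.5 RPM, the filter for this measure. Its occupancy was 0.24 ± 0.21 (SE from counting), at the 81.5th percentile of 7123 genes, whose median was −0.86. This places the 1 NMT gene measured in this way above 0, beside 24.1% of all genes. The sign rests on the pseudocount: on reads alone the value for NMT1 was −0.71 (interval −1.55 to 0.13). The median of all genes moved as well, to −2.19 on reads. With a pseudocount of 0.1 RPM the median was −1.82, and NMT1, at −0.41, was at the 80.6th percentile. The uORF-free leader of NMT2 isoform 1, which did not stand for its gene, passed the filter at a mean of 0.910 RPM. Its occupancy was −0.12 with the pseudocount of 0.5 RPM and −0.82 on reads. NMT2 isoform 2 did not pass the filter, and its occupancy was 0.67 with the pseudocount of 0.5 RPM and −0.72 on reads. In NMT3 isoform 2 these were −1.27 and −2.84. Genes with an annotated uORF had a median occupancy of 0.77 over the 74 measured, against −0.50 for genes with any upstream frame of 10 codons or more and −1.18 for genes without one.

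A list of 17 other genes known for conserved peptide uORFs was read beside the NMT genes. Of these, 15 were measured, and their median occupancy was 0.97, with 13 above 0 and 7 above 1. Over all genes, 24.1% were above 0 and 6.36% above 1. The highest were SACL1 (2.11), a homologue of the bHLH gene SAC51, VTC2 (1.86), of ascorbate synthesis, SAMDC3 (1.76) and SAMDC2 (1.64), of polyamine synthesis, and SAC51 (1.71). The lowest were the transcription factors bZIP53 (−0.09) and bZIP11 (−0.06) and the initiation factor eIF5 (0.0037). With the pseudocount NMT1, at 0.24, fell between the lowest and the median of the list. On reads alone the list had a median of 1.12 with 11 of 15 above 0. NMT1, at −0.71, was below all 15 and above the all-gene median on reads of −2.19. Of the 16 list genes with a measured exon ratio, 0 lay above the median of all genes, beside 50.0% of all genes by construction. NMT3 lay above that median. NMT2 was 0.05 above it, with a sign that changed with a pseudocount of 5 RPM and without the filter.

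The 3′ UTRs of the NMT genes were covered in mRNA-seq and nearly free of footprints. The 221-nt 3′ UTR of NMT1 held 0 footprints in ribo-seq and 250 reads in mRNA-seq, and the exact interval of its odds ratio against the exons reached up to 0.108. The 277-nt 3′ UTR of NMT2 held 2 footprints in ribo-seq and 1214 reads in mRNA-seq, an odds ratio of 0.0055 (exact interval 0.000667 to 0.0200). The 172-nt 3′ UTR of NMT3 held 0 footprints in ribo-seq and 352 reads in mRNA-seq, with an interval of up to 0.0156. Per length, the mRNA-seq level of the 3′ UTR was 84.4% of the exon level for NMT1, 54.6% for NMT2 and 92.8% for NMT3. All 3 genes had 3 or fewer ribo-seq reads there, beside 92.2% of genes with 100 or more mRNA-seq reads in the 3′ UTR. The 3′ UTR occupancies, with the pseudocount, were −1.11, −4.14 and −3.76, where the median of 11222 genes was −1.91, and 0 of 3 were above 0, beside 6.99% of all genes. They rest on the pseudocount: with 0.1 RPM they were −3.23, −5.96 and −5.98, and the median was −3.92.

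Other genes of the pathway were taken from a list of 30 by function, of which 28 passed the filter. Their median exon ratio was −0.65, against −0.99 for all genes, and 16 lay above the all-gene median, beside 50.0% of all genes by construction. More than 2-fold above it were 2 genes, beside 5.59% of all genes, and more than 2-fold below it were 2, beside 11.8%. The 2 above were the S-adenosylmethionine synthetases MAT3 and MTO3, which make the methyl donor. MAT3 had ribo-seq and mRNA-seq exon values of 219.6 and 168.4 RPM, 1.37 from the median, and MTO3 had 960.5 and 740.0 RPM, 1.36 from the median. The 2 below were AAPT2, an aminoalcoholphosphotransferase, with 8.53 and 43.9 RPM (−1.25 from the median), and ROD1, which exchanges phosphocholine head groups between phosphatidylcholine and diacylglycerol, with 3.98 and 22.6 RPM (−1.25 from the median). NMT3, at 1.22, was thus near the highest genes of its pathway, and NMT1, at −0.92, near the lowest.

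The list fell into 2 branches. The 10 genes of the methyl cycle, which regenerates S-adenosylmethionine, had a median ratio of −0.40, with 8 above the all-gene median. The other 20 genes supply phosphoethanolamine, use it and choline to build phospholipids, or act in related steps of phospholipid metabolism, as ROD1 does. The 18 measured of these had a median of −1.27, with 8 above, beside 50.0% of all genes by construction. The most abundant genes of the list in mRNA-seq were MS1, a methionine synthase, SAHH1, which clears S-adenosylhomocysteine, and MTO3. MS1 had ribo-seq and mRNA-seq values of 1167 and 1739 RPM, 0.41 from the median, and SAHH1 had 302.9 and 1135 RPM, −0.91 from it. The S-adenosylmethionine synthetases are close copies of each other, and their shares of reads are uncertain where counting could split them.

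**Figure D5:**
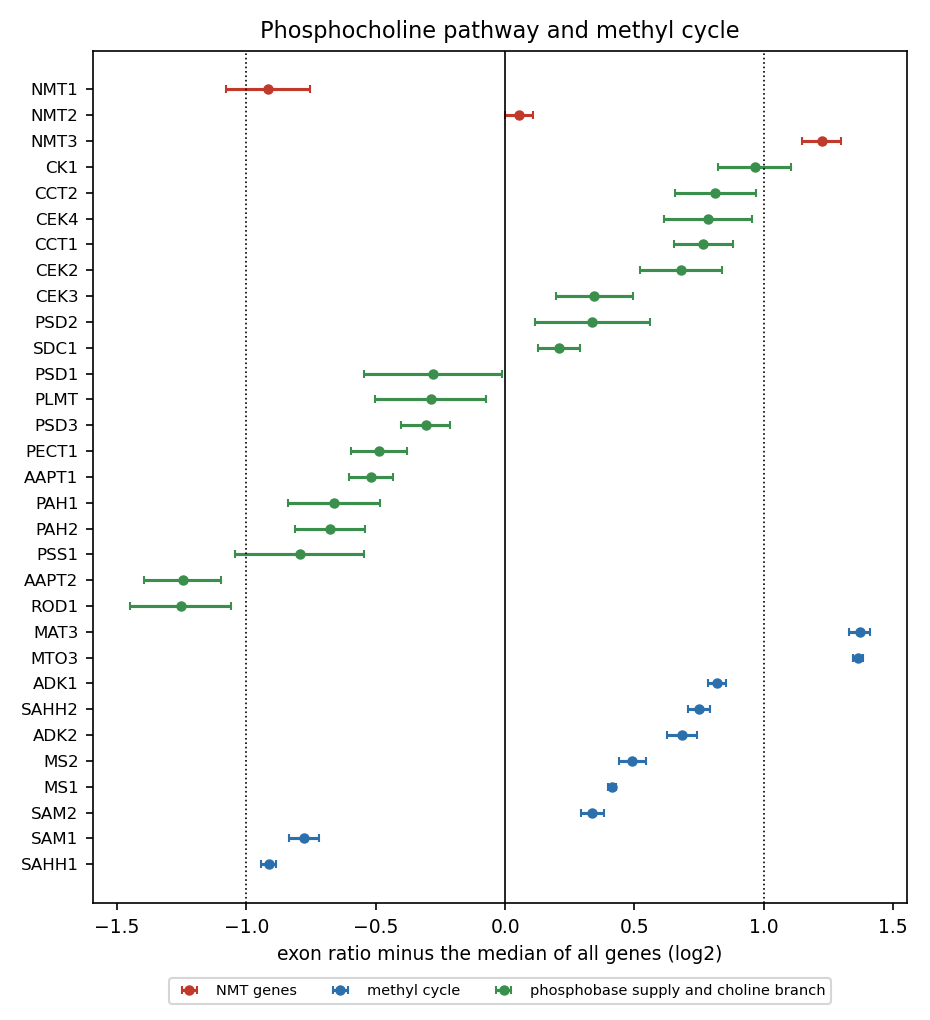
The exon ratio minus the median of all genes (log2) is plotted for the NMT genes (red), the methyl cycle (blue) and the genes of phosphobase supply and the choline branch (green), with 95% intervals from counting error and dotted lines at 2-fold. NMT3 (1.22), MAT3 (1.37) and MTO3 (1.36) lie beyond the upper dotted line, and AAPT2 and ROD1 (both −1.25) beyond the lower one.

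The genes with the most similar levels were found by Euclidean distance over 6 values, log2(RPM + 0.5) of the 5′ UTR, exons and 3′ UTR in both libraries. Among 15387 genes, the nearest to NMT1 were AT2G47850 (0.32), AT5G48830 (0.40) and AT1G49740 (0.44). The nearest to NMT2 were DHAR3, a dehydroascorbate reductase (0.51), AT2G44120 (0.55) and AT2G05920 (0.58). The nearest to NMT3 were ACR12, an ACT-domain protein (0.36), TSA1, a subunit of tryptophan synthase (0.42), and XW6 (0.45). The distance was 2.75 between NMT2 and NMT3, 3.30 between NMT1 and NMT3 and 5.36 between NMT1 and NMT2. Closer to NMT2 than NMT3 is were 623 genes, and closer to NMT3 than NMT2 is were 3477. Closer to NMT1 than NMT3 is were 8350 genes, and closer to NMT1 than NMT2 is were 12674.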

How the data were processed

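Ribo-seq and mRNA-seq reads of MBPs were aligned by the authors with TopHat 2.0 to TAIR10 and assigned to a feature with bedtools 2.23.0 when at least 80% of a read overlapped it. The treatment of strands is not given in the sources used here. Leaving out multi-mapping reads is described for mRNA-seq in general and not repeated for this counting. The deposited values are RPM in 3 tables (exons, 5′ UTR, 3′ UTR), 1 value per isoform and library. The deposited mRNA-seq exon column sums to 1348201, above the RPM scale, and was entered as a signal; with 1 isoform per gene it sums to 837819. Reads were recovered from the steps of the values, of which 99.9% (ribo-seq) and 99.8% (mRNA-seq) were whole within 0.05 reads.

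Across genes, each gene entered with its isoform of largest mean exon RPM. Ratios used a pseudocount of 1 RPM and a mean exon value of at least 1 RPM, and occupancies used 0.5 RPM for both. Shares have Wilson, read counts exact Poisson and odds ratios exact conditional 95% intervals. The leader level per length was ranked among genes with a 5′ UTR of at least 50 nt and at least 100 mRNA-seq exon reads. uORFs and lengths came from RefSeq models of TAIR10.1, which matched 32857 of 33114 isoforms. With 1 library per assay no test was run across genes in the main results.

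Named were the 3 members, pathway genes more than 2-fold from the median or among the 3 most abundant, the 5 highest and 3 lowest listed uORF genes by occupancy, and the 3 nearest genes of each member. Members and lists were chosen with earlier results of these data known. Alternatives covered the pseudocount, filter, scaling, isoform choice and use of exon values, and, chosen after seeing the data, recovered reads without a pseudocount. Only the exon ratio and the recovery of the read step were tested on simulated data, with changes placed in genes of higher level. Occupancies, leader levels and odds ratios were not tested in this way. Tools were Biopython 1.88, matplotlib 3.10.9, scipy 1.17.1, numpy 2.4.6 and pandas 2.3.3 under Python 3.11.15.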

Additional observations from a re-analysis of the deposited data

How the results depend on the processing

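Of 44 alternative values, 18 stayed close to the main value and 26 moved, 8 of them with a change of sign. These 8 were 2 for the exon ratio of NMT2, 3 for the 5′ UTR occupancy of NMT2 and 3 for that of NMT1, whose main interval includes 0. For the exon ratio minus the median, a pseudocount of 0.1 RPM gave 0.20 for NMT2 and 1.38 for NMT3, and one of 5 RPM gave −0.26 and 0.87. Without the filter, which adds low genes and so moves the median, NMT1, NMT2 and NMT3 were at −1.31, −0.34 and 0.83. Rescaling to the exon sum gave 0.16 for NMT2 and 1.33 for NMT3, and recovered reads without a pseudocount (chosen after seeing the data) gave 0.22 and 1.40. For 5′ UTR occupancy, a pseudocount of 0.1 RPM gave −0.41, 0.14 and −2.19 for NMT1, NMT2 and NMT3. Reads without a pseudocount gave −0.71, −0.72 and −2.84. The medians of all genes under these settings were −1.82 and −2.19. Summing isoforms gave −0.16 for NMT2, and leaving out the exon values gave −1.73 for NMT1 and −0.27 for NMT2. For 3′ UTR occupancy, the pseudocount of 0.1 RPM gave −3.23, −5.96 and −5.98, and summed isoforms gave −4.99 for NMT2 and −4.70 for NMT3. The 5′ UTR share of the ribo-seq reads of NMT2 was 0.0564% and, with isoforms summed, 0.254%. The cause of these shifts was not tested.

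A binomial test on the recovered reads (Benjamini-Hochberg adjusted over 16879 genes at 0.05) compares the 2 libraries, not conditions. Against the depths it called 595 genes higher in ribo-seq and 15203 lower, and against the exon sums 3799 higher and 9904 lower. NMT1 and NMT2 were called lower and NMT3 higher under both, although NMT2 lay 0.05 above the median of all genes, since these references are not the median. The test treats reads as independent. No paired analysis was possible because there was 1 library per assay. Depth limits the features with 0 or 2 ribo-seq reads, which are the uORF-bearing leaders of NMT2 and NMT3 and the 3′ UTRs of all 3 genes.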
